A study of Mus musculus with 8 samples.

Results

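The genes described here are 10 genes of olfactory sensory neurons, the nerve cells of the nose that detect odorants: Omp, Stoml3, Gng13, Cnga2, Cnga4, Adcy3, Gnal, Ano2, Rtp1 and Ric8b. A gene was taken from the probe sets annotated with exactly 1 symbol, by the probe set of the highest mean over the 8 arrays, and each of the 10 genes had a single such probe set. They are 10 of 19938 genes so measured. The set was chosen by early values already known, the ethanol minus saline differences of Omp and Stoml3, so the early differences are a description with no test. The tissue was the whole brain of C57BL/6J males killed as adults, at postnatal day 70, and its RNA was hybridised to Affymetrix Mouse Gene 1.0 ST arrays. The arrays ask how ethanol given at 1 of 2 stages of gestation alters expression in the adult brain.

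The 8 arrays formed 4 groups of 2. Early ethanol offspring came from C57BL/6J dams injected with ethanol in saline, at 2.5 g/kg, 2 times on each of gestational days 8 and 11. Early saline offspring came from dams that received an equal volume of saline on those days. Late ethanol and late saline offspring came from dams injected in the same way on gestational days 14 and 16. Each array carried RNA pooled from 3 mice, so the spread between single mice is not seen.

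Olfactory sensory neurons have their cell bodies in the lining of the nose and send their axons into the olfactory bulb at the front of the brain. In their cilia an odorant receptor activates the G protein Golf, Golf activates an adenylyl cyclase, and the cyclic AMP that is made opens a cation channel, after which a calcium-activated chloride channel amplifies the current. Several of these genes are also used by neurons of the brain, such as Gnal in the striatum and Adcy3 in the primary cilia of many neurons.

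Values are log2 expression. Background was set in each array at the 95th percentile of 210 vomeronasal and bitter taste receptor probe sets, and it lay at 6.58 to 6.78 in the early arrays and at 7.21 to 7.68 in the late arrays. The median of all probe sets lay at 6.74 to 6.84 in the early arrays and at 7.21 to 7.30 in the late arrays, so levels were compared only within a timing. The lowest correlation between 2 arrays of a timing was 0.993. All 10 genes that mark neurons of the brain and all 9 that mark its glia lay above background in each of the 8 arrays. Of 9 genes of liver, muscle, skin and pancreas, 0 did so in all 8. Among these, Acta1 was above background in 4 early and 2 late arrays, and Krt10 and Lor in 1 array each. For the olfactory sensory neuron genes the label held in part. Omp was above background in the 4 early arrays and in 0 late arrays, and Cnga2, Cnga4 and Rtp1, which also define the cell type, were above background in 0 of 8 arrays. Cngb1, a channel subunit outside the 10 that was also listed as defining, was above background in all 8 arrays.

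Promoters were read from RefSeq (GRCm38.p6) for 7 of the 10 genes, and none was read for Omp, Gnal and Rtp1. Each promoter was the 250 bases before a start site and the 50 bases from it. Stoml3 is shown because its early difference was the widest of the 10, Gng13 because it had the lowest late p-value, and Cnga2 and Cnga4 because they encode subunits of the same channel. All are on the + strand, at chr3:53488457-53488756 for Stoml3, chr17:25716922-25717221 for the first of the Gng13 promoters, chrX:71991599-71991898 for Cnga2 and chr7:105404318-105404617 for Cnga4. Capitals mark CCCNNGGG, the core of the sites bound by the Ebf factors of olfactory sensory neurons, which reads the same on both strands.
Stoml3: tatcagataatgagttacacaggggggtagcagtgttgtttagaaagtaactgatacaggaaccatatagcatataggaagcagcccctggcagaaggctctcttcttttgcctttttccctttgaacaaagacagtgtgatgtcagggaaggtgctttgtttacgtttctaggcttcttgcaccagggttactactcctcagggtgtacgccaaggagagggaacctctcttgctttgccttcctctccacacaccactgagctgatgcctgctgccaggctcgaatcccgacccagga
Gng13: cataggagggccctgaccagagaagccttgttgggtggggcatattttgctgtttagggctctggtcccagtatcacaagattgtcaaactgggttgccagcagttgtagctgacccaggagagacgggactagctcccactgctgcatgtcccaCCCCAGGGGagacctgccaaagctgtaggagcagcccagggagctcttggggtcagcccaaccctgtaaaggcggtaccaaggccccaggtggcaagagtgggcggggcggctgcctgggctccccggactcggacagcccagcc
Cnga2: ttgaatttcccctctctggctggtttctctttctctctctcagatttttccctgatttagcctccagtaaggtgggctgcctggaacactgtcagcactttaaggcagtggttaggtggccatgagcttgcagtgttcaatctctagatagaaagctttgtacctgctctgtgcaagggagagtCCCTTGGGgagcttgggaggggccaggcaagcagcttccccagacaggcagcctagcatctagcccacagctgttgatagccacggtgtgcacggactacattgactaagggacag
Cnga4: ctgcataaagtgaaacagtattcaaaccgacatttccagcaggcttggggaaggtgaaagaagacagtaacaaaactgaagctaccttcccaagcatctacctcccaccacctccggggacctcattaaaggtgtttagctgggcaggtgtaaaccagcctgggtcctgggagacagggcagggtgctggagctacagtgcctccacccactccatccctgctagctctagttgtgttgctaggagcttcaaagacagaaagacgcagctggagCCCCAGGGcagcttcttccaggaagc
In Gng13 the capitals join 2 overlapping matches. A match was found in 4 of the 7 genes, which were Gng13, Cnga2, Cnga4 and Ano2. Over the RefSeq promoters used for comparison, a match was in 15.4% of 27018 genes (13.7% of 32841 promoters). The longer form, with a T before the core and an A after it, was in 0 of the 7 genes, against 1.1% of all genes (0.9% of promoters). TAATTA, the core bound by Lhx2 and Emx2, was in 0 of the 7 genes, against 6.1% of all genes (5.3% of promoters). A match is a description of the letters and shows no binding.

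After early exposure, Stoml3 and Omp were lower in the ethanol arrays than in the saline arrays, with log2 differences of -1.59 and -0.66, and the other 8 genes differed by -0.10 to 0.00. The difference was wider than the gap between the arrays of either group for 3 of the 10 genes, which were Stoml3, Omp and, at -0.07, Gng13. Stoml3 had the lowest and Omp, at rank 7, among the lowest differences of the 23410 probe sets with a symbol. Both ethanol arrays lay below both saline arrays for 5 of the 10 genes (Omp, Stoml3, Gng13, Adcy3 and Rtp1), against 18.9% of all probe sets with a symbol, and above both for 0 of the 10, against 7.5%. The members were proposed from this contrast, so these counts carry no test. After median centring of the arrays, the first count was 3 (Omp, Stoml3 and Rtp1), against 17.5% of all probe sets. The median difference of the 10 genes was -0.04, beside -0.02 over all probe sets with a symbol.

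**Figure D1:**
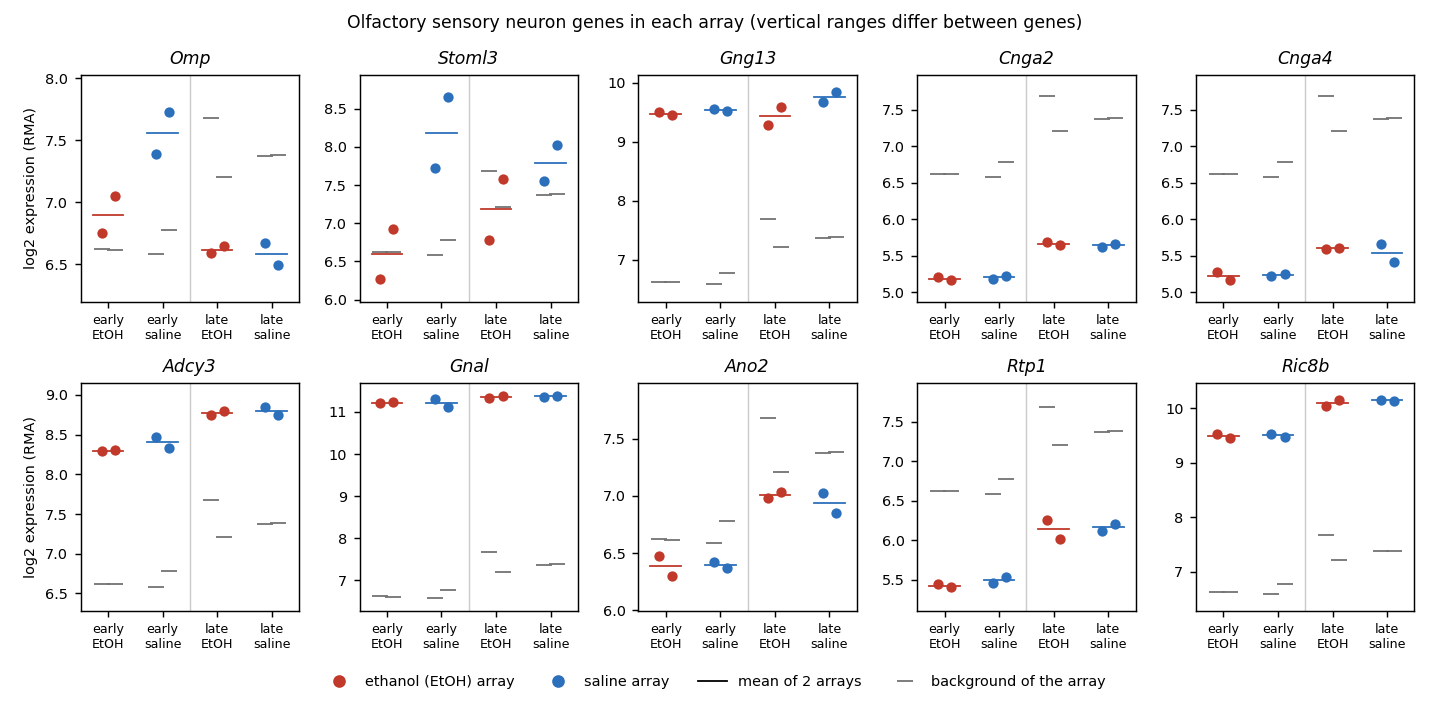
Log2 expression of the 10 genes in each of the 8 arrays, ethanol left of saline within each timing, with 1 point per array and the background of each array marked. Both early ethanol arrays of Stoml3 (6.27 and 6.92) sit under its early saline arrays (7.72 and 8.65), and Cnga2, Cnga4, Ano2 and Rtp1 lay under the background in every array.

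Omp encodes olfactory marker protein, a cytoplasmic protein of mature olfactory sensory neurons that shapes the time course of their response (probe set 10565705). It measured 6.75 and 7.05 in the early ethanol arrays, against 7.39 and 7.73 in the early saline arrays. Both ethanol arrays were low and both saline arrays high, with no overlap. The means were 6.90 ± 0.21 in ethanol and 7.56 ± 0.24 in saline offspring (SD, n = 2 each), a log2 difference of -0.66, where the arrays of a group differed by up to 0.34. Leaving out 1 early array at a time gave -0.83 to -0.49. In a bulk sample, fewer cells of a type or fewer of their axons and less RNA per cell cannot be told apart. Omp lies inside the span of Capn5, a calpain protease gene, in RefSeq. Capn5 measured 8.00 and 7.88 in the early ethanol arrays and 8.08 and 7.83 in the early saline arrays, so its groups overlapped, with a difference of -0.01.

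Stoml3 encodes a membrane protein of the stomatin family found in the cilia of olfactory sensory neurons and, in touch receptors of the skin, a modulator of mechanically gated channels (probe set 10491993). It measured 6.27 and 6.92 in the early ethanol arrays, against 7.72 and 8.65 in the early saline arrays. Again both ethanol arrays were below both saline arrays, and the lower of them, replicate 1, was under background. The means were 6.596 ± 0.459 in ethanol and 8.184 ± 0.656 in saline offspring (SD, n = 2 each). The log2 difference was -1.59, and the arrays of a group differed by up to 0.93. With ethanol replicate 1 under background, no fold is given. Leaving out 1 early array at a time gave -2.05 to -1.12.

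The G protein subunits and their partner differed by at most 0.07 after early exposure. Gng13, the gamma subunit that joins Golf in olfactory sensory neurons (probe set 10442829), measured 9.50 and 9.44 in the early ethanol arrays, against 9.55 and 9.52 in the early saline arrays. The groups did not overlap, but the difference was -0.07. Gnal, the alpha subunit of Golf (probe set 10456363), measured 11.20 and 11.23 in the early ethanol arrays, against 11.31 and 11.11 in the early saline arrays, so its ethanol arrays lay between its saline arrays and the difference was 0.00. Ric8b, which helps Golf fold and exchange its nucleotide (probe set 10365408), measured 9.54 and 9.45 in the early ethanol arrays and 9.53 and 9.48 in the early saline arrays, a difference of -0.01 with overlapping groups.

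Adcy3, the adenylyl cyclase that Golf activates (probe set 10394258), measured 8.29 and 8.31 in the early ethanol arrays, against 8.48 and 8.33 in the early saline arrays. The ethanol arrays were the lower ones without overlap, by -0.10, where the saline arrays differed by 0.15. The channel genes were at background. Cnga2, the principal subunit of the cyclic AMP gated channel (probe set 10600057), measured 5.20 and 5.17 in the early ethanol arrays and 5.18 and 5.22 in the early saline arrays, a difference of -0.02. Cnga4, a modulatory subunit of that channel (probe set 10555925), measured 5.28 and 5.17 in the early ethanol arrays and 5.22 and 5.25 in the early saline arrays, a difference of -0.01. In both, the ethanol and the saline arrays overlapped.

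Ano2, the calcium-activated chloride channel of the cilia (probe set 10541968), measured 6.47 and 6.30 in the early ethanol arrays and 6.42 and 6.37 in the early saline arrays. Its groups overlapped, with a difference of -0.01 and no early array above background. Rtp1, which carries odorant receptors to the cell surface (probe set 10434773), measured 5.44 and 5.41 in the early ethanol arrays, against 5.46 and 5.54 in the early saline arrays. Its ethanol arrays were both lower, by a mean of -0.07, at values under background in each array.

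**Figure D2:**
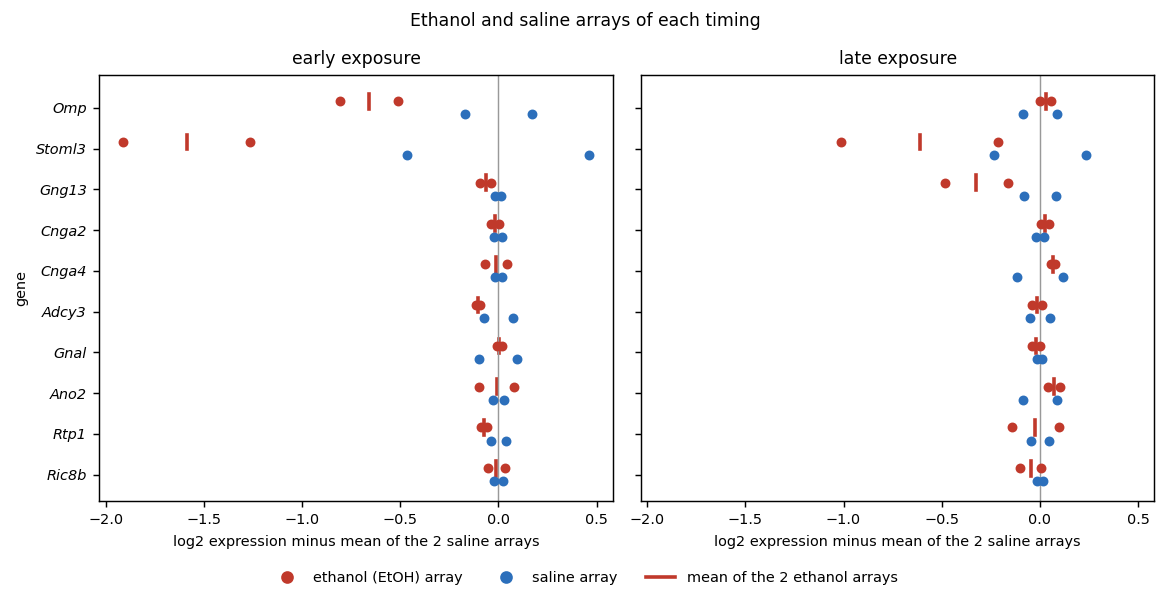
Log2 expression of each gene minus the mean of the 2 saline arrays of its timing, with ethanol arrays in red, saline arrays in blue and the mean of the ethanol arrays as a red bar. The early ethanol means of Stoml3 and Omp lay at -1.59 and -0.66, and the late ethanol means of Stoml3 and Gng13 at -0.61 and -0.32.

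After late exposure, 0 of the 10 genes passed limma's adjusted threshold of 0.05, as did 0 of the 23410 probe sets with a symbol (0.0%). Late ethanol and late saline arrays did not overlap for 1 of the 10 genes, Gng13, which was lower in ethanol, against 15.7% of all probe sets in that direction. No gene of the 10 was higher in both ethanol arrays, against 12.7% of all probe sets. At an unadjusted p under 0.05 limma listed 583 of 23410 probe sets (2.49%), and Gng13 was the only one of the 10 genes among them. The unmoderated test listed 740 probe sets and 0 of the 10 genes. At the study's thresholds, an unadjusted p under 0.05 with a 1.2-fold difference, limma listed Gng13 alone of the 10 genes, as lower, against 1.16% of all probe sets in either direction, 0.722% as lower and 0.44% as higher. The median difference of the 10 genes was -0.02, beside -0.01 over all probe sets with a symbol.

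Gng13 measured 9.27 and 9.59 in the late ethanol arrays, against 9.68 and 9.84 in the late saline arrays. Both ethanol arrays were lower, replicate 1 by the most. The means were 9.43 ± 0.23 in ethanol and 9.76 ± 0.11 in saline offspring (SD, n = 2 each), a log2 difference of -0.32 with a standard error of 0.11. Limma gave an unadjusted p of 0.0214 and an adjusted p of 1. The unmoderated test on the late arrays alone, run across all probe sets as the alternative to limma, gave an unadjusted p of 0.211 for Gng13. Without late ethanol replicate 1 the difference was -0.16 (limma, unadjusted p = 0.161), and without late saline replicate 2 the limma p was 0.124. The span of Gng13 partly overlaps that of Chtf18 in RefSeq, a gene of sister chromatid cohesion that lay at background in all 8 arrays.

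Stoml3 measured 6.78 and 7.58 in the late ethanol arrays, against 7.56 and 8.03 in the late saline arrays. Ethanol replicate 1 was low and under background, while ethanol replicate 2 was level with saline replicate 1, so the groups overlapped. The difference of -0.61, at rank 12 from the lowest of 23410, had a standard error of 0.37 and an adjusted p of 1 (limma, unadjusted p = 0.132). It was -0.21 without late ethanol replicate 1 and -1.01 without late ethanol replicate 2.

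Omp measured 6.59 and 6.65 in the late ethanol arrays, against 6.67 and 6.50 in the late saline arrays, with all 4 under background. The saline arrays enclosed the ethanol arrays, and the difference was 0.03 with a standard error of 0.14 (limma, adjusted p = 1). Its sign changed with the normalization between arrays. No test set the early difference of Omp or of Stoml3 against the late one, since the early values led to their choice.

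Among the partners of the G protein, Gnal measured 11.33 and 11.37 in the late ethanol arrays, against 11.35 and 11.38 in the late saline arrays, a difference of -0.02 ± 0.09 (SE). Ric8b measured 10.05 and 10.15 in the late ethanol arrays, against 10.16 and 10.13 in the late saline arrays, a difference of -0.05 ± 0.08 (SE). Adcy3 measured 8.75 and 8.80 in the late ethanol arrays, against 8.85 and 8.74 in the late saline arrays, a difference of -0.02 ± 0.09 (SE). These 3 genes had overlapping groups and an adjusted p of 1 in limma.

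The 4 genes under background in all 8 arrays also had overlapping late groups and an adjusted p of 1 in limma. Cnga2 measured 5.69 and 5.65 in the late ethanol arrays, against 5.62 and 5.66 in the late saline arrays, a difference of 0.03. Cnga4 measured 5.59 and 5.61 in the late ethanol arrays, against 5.65 and 5.42 in the late saline arrays, a difference of 0.07. For both channel subunits the values of ethanol and saline arrays crossed. Ano2 measured 6.98 and 7.04 in the late ethanol arrays, against 7.03 and 6.85 in the late saline arrays, a difference of 0.07. Rtp1 measured 6.26 and 6.02 in the late ethanol arrays, against 6.12 and 6.21 in the late saline arrays, a difference of -0.02. A decrease, or a small rise, in genes at this level was not detectable on these arrays.

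Over the 8 arrays, each centred on the mean of its timing, Omp and Stoml3 varied together (r = 0.85, n = 8), and the r of Omp with the other 8 genes ran between -0.32 for Gnal and 0.44 for Adcy3. These values describe arrays that share the early contrast and the normalization of their timing. The early differences of Omp and Stoml3 led to the choice of the set, so the r of this pair is in large part set by the choice. The 10 genes most like Omp by this r, of 963 genes whose mean over the 4 arrays was above background in both timings and that varied by an SD of at least 0.15, were Ptpro (0.96), Dlx1 (0.96), Vipr2 (0.94), Gng4 (0.94), Frmd7 (0.93), Ms4a15 (0.92), Dcx (0.92), Doc2g (0.90), Lgr5 (0.89) and Cdhr1 (0.88). Frmd7 (6.09) and Cdhr1 (6.27) were under background in early ethanol replicate 1 and passed on the mean of the 4 arrays. Omp itself was not above background late, so its own late values enter these r at background. Among them, Dlx1 is a homeobox factor of forebrain interneurons, Dcx a microtubule protein of migrating young neurons, and Cdhr1 a cadherin made by mitral and tufted cells of the bulb. Dlx1 measured 8.04 and 8.49 in the early ethanol arrays, against 8.72 and 8.89 in the early saline arrays. Frmd7 measured 6.09 and 6.81 in the early ethanol arrays, against 7.05 and 7.39 in the early saline arrays. These genes were chosen for following Omp, so their low early ethanol values are set by the choice and carry no further information. The gene most like Stoml3 was Th, which encodes tyrosine hydroxylase of dopaminergic cells (r = 0.99, n = 8), looked at after the values were seen.

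**Figure D3:**
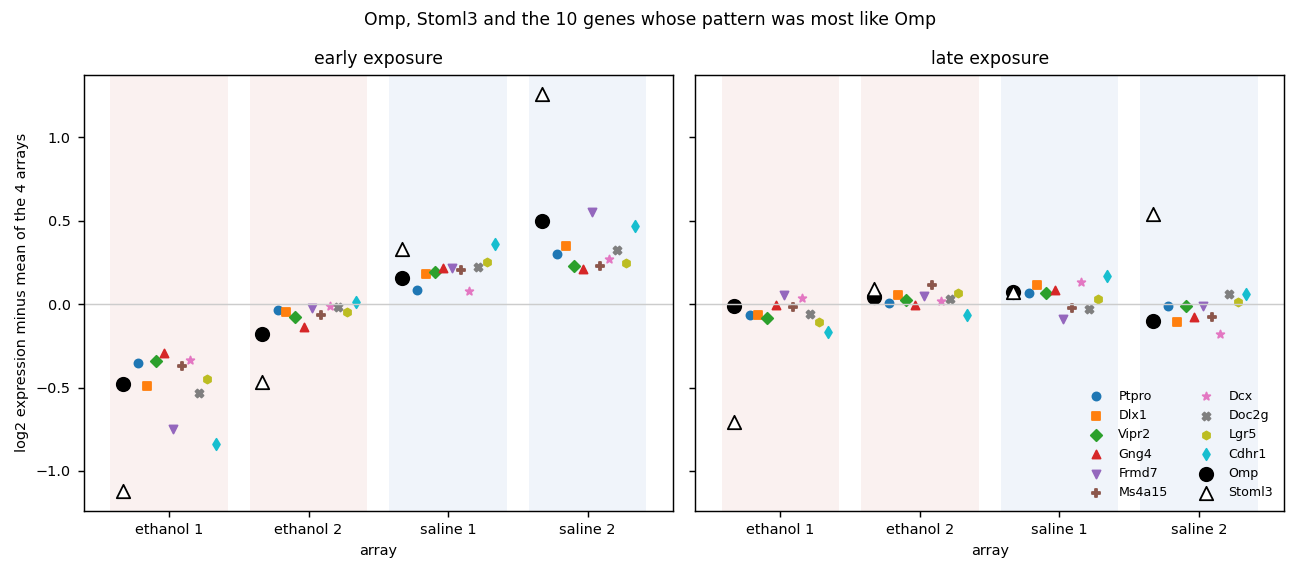
Log2 expression minus the mean of the 4 arrays of a timing for Omp (black circles), Stoml3 (open triangles) and the 10 genes whose pattern was most like Omp (coloured points), ethanol arrays on red and saline arrays on blue bands. The coloured genes were chosen for following Omp over these arrays, with r of 0.88 to 0.96, so the likeness in the early panel is set by the choice.

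The axons of olfactory sensory neurons end in the olfactory bulb, whose own cells were looked at through 2 lists. The lists were chosen with earlier results of these data known and are described by their counts with no test. Dlx1, Doc2g and Cdhr1 of these lists were named above for following Omp, and Th for following Stoml3. The low early ethanol values of these genes therefore add no separate result. Of 16 genes of periglomerular and granule cells, 14 were lower in early ethanol offspring, 10 of them without overlap, and Etv1, a transcription factor, was higher without overlap by 0.11. Over all probe sets 18.9% were lower and 7.5% higher without overlap. The median of the list was -0.17, and 12 of the 16 genes had an early mean above background. Th, tyrosine hydroxylase of periglomerular cells, measured 8.43 and 8.60 in the early ethanol arrays, against 8.90 and 9.20 in the early saline arrays, a difference of -0.53. Dlx1 and Dlx2, homeobox factors of interneurons, differed by -0.53 and -0.51, and Synpr, a synaptic vesicle protein, by -0.32, all 3 without overlap. The summed linear level of the list ran from 15320 to 15720 in the early ethanol and from 15700 to 16470 in the early saline arrays. Of its defining genes, Tfap2e and Sp8 were under background in all 8 arrays.

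Of 12 genes of mitral and tufted cells, 11 were lower in early ethanol offspring, 5 without overlap, against 18.9% of all probe sets. Their median was -0.08, and 8 of the 12 had an early mean above background. Tbr1 and Slc17a7, a transcription factor and a glutamate transporter that cortical neurons also make, differed by 0.00 and -0.02. Cdhr1 measured 6.27 and 7.12 in the early ethanol arrays, against 7.47 and 7.57 in the early saline arrays. It was low in ethanol replicate 1, where it lay under background, and the difference was -0.83. Doc2g differed by -0.55, Eomes, a T-box factor of these cells, by -0.27, and Tbx21, a T-box factor above background in 1 early array, by -0.24. The summed linear level of the list ran from 9020 to 9837 in the early ethanol and from 9263 to 10210 in the early saline arrays, so the sums overlapped. The part of bulb content in the early differences of Omp and Stoml3 was not tested.

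After late exposure 13 of the 16 interneuron genes were lower in ethanol offspring, 5 without overlap, against 15.7% of all probe sets. Their median was -0.05. The summed level of the list ran from 17420 to 18220 in the late ethanol and from 18700 to 19220 in the late saline arrays. Calb1, Calb2, Etv1 and Meis2, at late ethanol means of 12.27, 11.95, 11.48 and 11.18, weigh most in the sums of each timing. The defining genes Tfap2e and Sp8, under background, add little to them. Th measured 8.65 and 8.96 in the late ethanol arrays, against 9.01 and 9.04 in the late saline arrays, a difference of -0.22, and Calb2, the calcium-binding protein calretinin, differed by -0.22. Of the 12 mitral and tufted cell genes, 8 were lower, 3 without overlap, beside the same 15.7%. Their median was -0.05, and Eomes differed by -0.37 and Cdhr1 by -0.23. None of these genes passed limma's adjusted threshold (0 of 16 and 0 of 12). General lists of the brain were also mostly lower late. Of 10 genes of brain neurons, 8 were lower, 4 without overlap, and 2 higher. Of 9 glial genes, 7 were lower, 3 without overlap, and 2 higher, 1 without overlap. The late lowering was thus not particular to the bulb lists.

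The tissue of the nose was looked at through its supporting cells and glands. Of 9 sustentacular genes, 4 were lower and 5 higher after early exposure, with a median of 0.00, and 6 were lower after late exposure, with a median of -0.07. Only 2 of the 9, Ermn and Gsta4, had a mean above background in either timing, so the medians rest mostly on values at background. Whether the RNA of these 2 genes came from cells of the nose or of the brain was not tested. Cyp2g1, a cytochrome P450 of sustentacular cells, measured 5.72 and 6.15 in the early ethanol arrays, against 6.18 and 7.25 in the early saline arrays, and only saline replicate 2 was above background. Late, it measured 6.02 and 6.06 in the ethanol arrays, against 6.00 and 6.92 in the saline arrays, with saline replicate 2 again high but under background. Stoml3 was also highest in saline replicate 2 in each timing. Cyp1a2, another defining gene, was under background in all 8 arrays, and the summed level of the list ran from 2224 to 2362 in the early ethanol and from 2157 to 2262 in the early saline arrays. Ermn and Gsta4, at early ethanol means of 10.20 and 9.56, weigh most in that sum, so it says little of the other genes.

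Of 15 genes of nasal and Bowman's glands, 12 were higher in early ethanol offspring, 7 without overlap, with a median of 0.28, where 7.5% of all probe sets were higher without overlap. Only 5 of the 15 had an early mean above background, and of the 7 genes Mup5 and Reg3g were under it in each of the 8 arrays. Bpifb9b, a secreted protein of nasal glands, measured 11.75 and 9.33 in the early ethanol arrays, against 7.09 and 6.43 in the early saline arrays, a difference of 3.78. Bpifb9a, its relative, measured 10.84 and 8.50 in the early ethanol arrays, against 7.22 and 7.13 in the early saline arrays, a difference of 2.49. Obp2a, an odorant-binding protein, differed by 1.59 and was above background in early ethanol replicate 1 alone. Scgb1c1, a secretoglobin, had a difference of the other sign with overlapping groups, at 6.16 and 6.84 in the early ethanol arrays against 6.75 and 8.38 in the early saline arrays, and was highest in saline replicate 2. The summed level of the list ran from 2313 to 7271 in the early ethanol and from 1622 to 1807 in the early saline arrays, and from 1826 to 1839 in the late ethanol and 1780 to 1928 in the late saline arrays. The early sum was highest in ethanol replicate 1, the array where Omp and Stoml3 were lowest. The part of nasal tissue carried over with a brain in these differences was not tested.

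**Figure D4:**
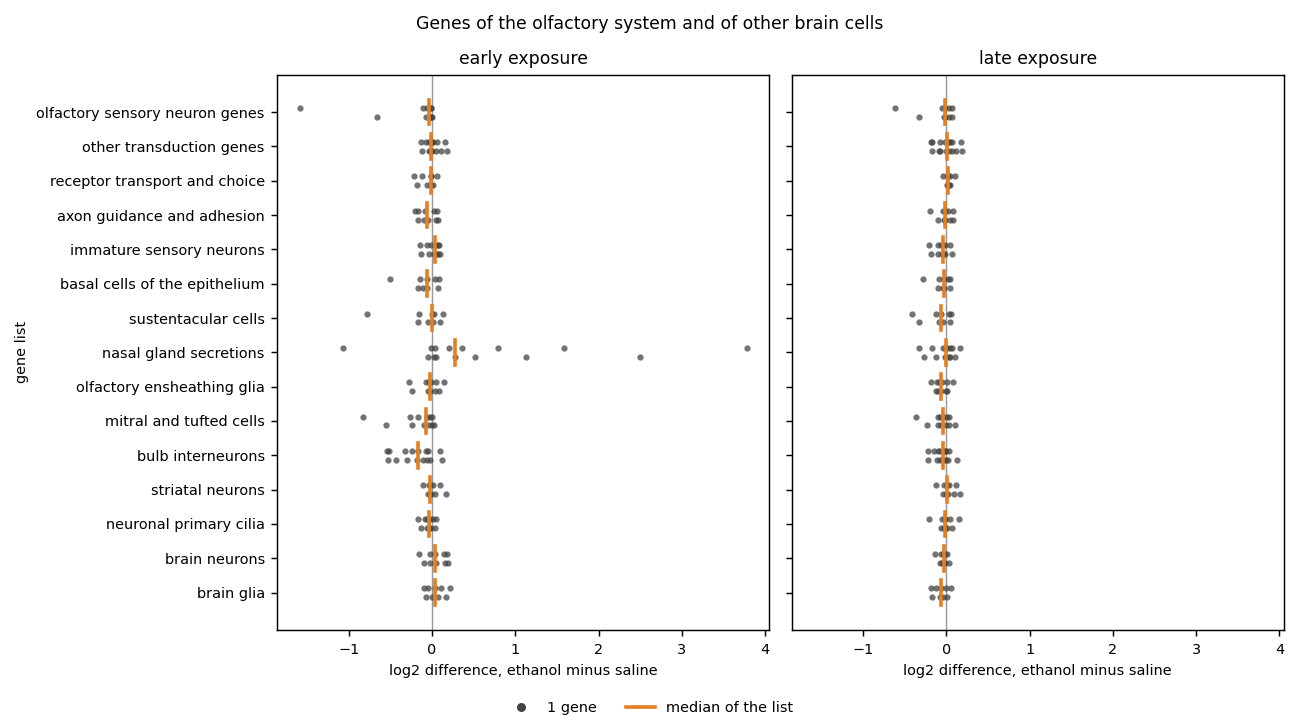
Log2 difference of ethanol minus saline for each gene of the lists beside the 10 genes, early and late, with 1 point per gene and the median of each list as a bar. Early medians were -0.17 for bulb interneurons, -0.08 for mitral and tufted cells and 0.28 for nasal glands.

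The other genes of odorant transduction showed no common direction. Of 16 measured, 9 were lower and 7 higher after early exposure, 2 without overlap in each direction, with a median of -0.01. Shares of all probe sets without overlap were 18.9% lower and 7.5% higher early, and 15.7% and 12.7% late. Slc12a2, the cotransporter that loads chloride into the cilia, measured 10.47 and 10.49 in the early ethanol arrays, against 10.30 and 10.30 in the early saline arrays. Camk2g, a calmodulin kinase, differed by 0.16, Arrb2, the beta-arrestin that desensitizes receptors, by -0.14, and Gnb1, the beta subunit paired with Golf, by 0.10. Cngb1, the third subunit of the channel, measured 9.48 and 9.79 in the early ethanol arrays and 9.62 and 9.72 in the early saline arrays. After late exposure 8 were lower and 8 higher, 3 without overlap in each direction, and 0 of 16 passed limma's adjusted threshold. Among the genes above background, the late differences furthest from 0 were 0.19 for Slc24a4, a calcium exchanger of the cilia, -0.19 for Kcnk1, a potassium channel, and -0.17 for each of the phosphodiesterases Pde4a and Pde1c.

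Of 9 genes of receptor transport and choice, 7 were lower after early exposure, 4 without overlap, with a median of -0.02. Beside the counts given here, 18.9% of all probe sets were lower and 7.5% higher without overlap early, and 15.7% and 12.7% late. Lbr, the lamin B receptor, which is low in olfactory sensory neurons, differed by -0.22, and Reep6, of a family that assists receptor transport, by -0.13. After late exposure 1 was lower and 8 higher, with a median of 0.02. Of 10 genes of axon guidance and adhesion, 6 were lower and 4 higher after early exposure, 5 and 2 of them without overlap. Epha5 and Robo2, guidance receptors, differed by -0.21 and -0.17, and Kirrel3, which sorts olfactory axons, by -0.09, while Nrp1, a semaphorin receptor, and Sema3f, a semaphorin, differed by 0.07 and 0.05, all without overlap. After late exposure 6 were lower and 4 higher, without overlap for Plxna1, a semaphorin co-receptor, at -0.20, and for Ncam2, an adhesion molecule, at 0.08. Of 11 genes of olfactory ensheathing glia, which wrap these axons, 7 were lower and 4 higher after early exposure. Only 1 did so without overlap, Frzb, a secreted Wnt antagonist, by -0.24. Prss56, which with Frzb was listed as defining these cells, was under background in all 8 arrays and differed by -0.01. Nell2 and Aldh1a1 were higher by 0.15 and 0.09 with overlapping groups. Fabp7, a fatty acid binding protein of glia, differed by -0.27 with overlapping groups. None of these 3 lists had a gene past limma's adjusted threshold late (0 of 9, 0 of 10 and 0 of 11).

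A pair of lists bears on the use of the members elsewhere in the brain. Without overlap, 18.9% of all probe sets were lower and 7.5% higher early, and 15.7% and 12.7% late. Of 10 genes of the striatal neurons that also use Gnal, 6 were lower and 4 higher after early exposure, 1 without overlap, with a median of -0.02, and Penk, the enkephalin precursor, differed by 0.17. After late exposure 4 were lower and 6 higher, with a median of 0.01, and Drd1, the dopamine receptor that couples to Golf, differed by 0.12. Of 11 genes of neuronal primary cilia, where Adcy3 lies, 8 were lower after early exposure, 3 without overlap, with a median of -0.03, among them Bbs4, a trafficking protein of cilia, by -0.16, and Sstr3, a somatostatin receptor of cilia, by -0.13. After late exposure 7 were lower, 2 without overlap, with a median of -0.02, and Bbs4 differed by -0.21. In limma 0 of 10 and 0 of 11 passed the adjusted threshold late.

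Odorant receptors are the most numerous genes of olfactory sensory neurons, each cell using 1 of them. Of 1027 measured receptor genes, 579 were lower and 448 higher after early exposure, with a median of -0.01. Both ethanol arrays lay below both saline arrays for 19.9% of the receptor genes, near the 18.9% of all probe sets, and above both for 9.5%, beside 7.5%. After late exposure 371 were lower and 656 higher, with a median of 0.03. Late groups did not overlap for 2.8% of the receptor genes in the lower and 8.8% in the higher direction, beside 15.7% and 12.7% of all probe sets. Only 26 to 33 of the 1027 lay above background in an early array and 47 to 79 in a late array, so nearly all of these values are at background.

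The receptor genes furthest apart after early exposure were Olfr1085 (-0.46), Olfr1251 (-0.35), Olfr787 (0.41) and Olfr640 (0.27), each under background in the 4 early arrays. After late exposure they were Olfr936 (-0.42), Olfr338 (-0.41), Olfr767 (0.73) and Olfr1193 (0.60). Olfr767 alone of these was above background in all 8 arrays. It measured 10.18 and 9.46 in the late ethanol arrays, against 9.75 and 8.44 in the late saline arrays. Saline replicate 2 was low and the groups overlapped (limma, adjusted p = 1).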

How the data were processed

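Whole-brain RNA of 24 adult male mice, pooled in threes, was measured on 8 arrays. The log2 values were used as the authors deposited them: per the study's methods and the labels, RMA with quantile normalization in Partek (6.6 in the submitters' processing notes). That the late arrays were processed as the early ones is assumed, and the values show that each timing was normalized apart. The genome build of the annotation is not given in the sources used here.

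Of 35556 probe sets, 12146 (34.2%) carried no symbol, and 23410 were tested. Late ethanol minus late saline was tested with limma 3.58.1 (R 4.3.3), fitting the 4 group means over the 8 arrays together, with Benjamini-Hochberg adjustment over 23410 probe sets and a threshold of 0.05. The scripts were tested on simulated data. With 2 arrays against 2, the smallest p of a two-sided exact permutation test is 0.333, so none was run. The 2 arrays of a group are separate pools. The number of arrays limits the precision.

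The 10 genes and the 18 gene lists set beside them were chosen with earlier results of these data known. Named were all 10 genes, up to 4 genes of a list per timing with the widest difference among those above background in a group, the 10 genes most like Omp, and the 2 most extreme odorant receptors per direction and timing; other genes were named after their values were seen. Alternatives were the unmoderated test on 4 arrays (for 2 groups, the one-way analysis of variance of the study's methods), limma on 4 arrays, a replicate block, other probe set filters, median centring, quantile normalization, a background with odorant receptors, and leaving out each array.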

Additional observations from a re-analysis of the deposited data

How the results depend on the processing

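Over the alternatives run, 0 of the 10 genes passed an adjusted p of 0.05 in the late contrast. The count of genes at an unadjusted p under 0.05 was 1 (Gng13) in limma, 0 in the unmoderated test, and 0 to 2 when 1 array was left out. Replicate numbers were shared by label only: the correlation of same-numbered deviations was 0.466 early and -0.464 late. With the replicate block, the count was 2 (limma, Stoml3 with an unadjusted p of 0.00185 and Gng13 with 0.00938, both with an adjusted p of 1). With the late numbers crossed, a pairing added after seeing the data, the count was also 2.

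With each array centred on its median, 3 rather than 5 genes were lower in both early ethanol arrays. Leaving out 1 array gave 5 to 9 genes lower and 0 to 3 higher early, and 2 to 5 lower and 1 to 4 higher late, where 1 group then has a single array. The median difference then ran from -0.0891 to -0.0230 early and from -0.0549 to 0.0052 late. Quantile normalization over 8 arrays turned the late differences of Omp to -0.0105, Cnga2 to -0.0115, Adcy3 to 0.0153, Gnal to 0.0419 and Ric8b to 0.0049, and within a timing to -0.0104, -0.0123, 0.0165, 0.0406 and 0.0044 in that order. Leaving out 1 late array also turned the sign of 7 genes, over ranges of -0.0572 to 0.119 for Omp, -0.0526 to 0.184 for Cnga4, -0.0697 to 0.0355 for Adcy3, -0.0408 to 0.00065 for Gnal, -0.0180 to 0.158 for Ano2, -0.142 to 0.0958 for Rtp1 and -0.100 to 0.0044 for Ric8b. In the early contrast, leaving out 1 array turned the sign of Cnga2, Cnga4, Gnal, Ano2 and Ric8b. Quantile normalization, over 8 arrays or within a timing, turned that of Cnga2, Cnga4 and Gnal. Median centring turned that of Gnal, to -0.0057. The cause was not tested. Early and late differences of Stoml3 and Gng13, and the early difference of Omp, kept their direction under each of these settings.

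Each gene had 1 probe set, so a mean over probe sets could not differ. The filter on the lowest 25% of probe sets removed Cnga2, Cnga4 and Rtp1. Signal over background is a limit: 4 of the 10 genes lay under it in all 8 arrays, and with odorant receptors in the background Ano2 lay above it in 2 early arrays.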

Other observations

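Cell types of the nose other than those in the report gave the following values. For comparison, 18.9% of all probe sets were lower and 7.5% higher without overlap early, and 15.7% and 12.7% late. Of 12 genes of immature olfactory sensory neurons, 5 were lower and 7 higher after early exposure, with a median of 0.04. Gng8, which this list shares with that of vomeronasal neurons, was under background in all 8 arrays. Stmn2, Stmn3 and Gap43 lay far above it, at early ethanol means of 12.81, 12.49 and 10.54. How much of the signal of this list came from neurons of the brain was not tested. Tubb3, a neuronal tubulin, differed by -0.14, Ebf4, a transcription factor, by 0.09, and Stmn3 and Gap43, growth proteins of axons, by 0.08 each, all with overlapping groups. After late exposure 10 were lower, 4 without overlap, with a median of -0.05, among them Crmp1, a protein of axon guidance signalling, by -0.21, and Ebf1, a transcription factor, by -0.18. Of 9 basal cell genes, 6 were lower and 3 higher after early exposure, 4 and 1 of them without overlap, with a median of -0.06. Krt5, Krt14, Trp63 and Neurog1, which define these cells, were under background in all 8 arrays, and Trp63 differed by 0.08. Lgr5 and Sox2, which differed by -0.50 and -0.16, are also made by cells of the brain. After late exposure 6 were lower, 2 without overlap, among them Neurod1, a neurogenic factor, by -0.28. Of 8 genes of vomeronasal neurons, 4 were lower and 4 higher after early exposure, with a median of 0.01. The more specific genes Gng8, Calr4 and Mslnl were under background in all 8 arrays. The widest difference, -0.30, was that of Meis2, a homeobox factor of brain neurons that the list of bulb interneurons also holds. After late exposure 7 were lower, 4 without overlap, with a median of -0.06. Of 10 genes of the respiratory epithelium, 9 were lower after early exposure, 1 without overlap, with a median of -0.02, and 9 were higher after late exposure, 4 without overlap, with a median of 0.04. In limma 0 genes of these lists passed the adjusted threshold late, and most genes of the respiratory list were at background.

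Among lists of the brain and other tissues, the 10 genes of brain neurons had a median of 0.04 early and -0.03 late, with 1 higher early without overlap (Nefl, a neurofilament, by 0.20) and 2 lower (Gad1 and Gad2, enzymes of GABA synthesis, by -0.10 and -0.16). The 9 glial genes had a median of 0.04 early and -0.06 late, with 2 higher early without overlap (Mbp, a myelin protein, by 0.22, and Olig2, an oligodendrocyte factor, by 0.17) and 0 lower. The 9 genes of other tissues had medians of -0.02 early and 0.00 late, and the 2 measured genes of red blood cells -0.04 early and 0.06 late. Early, 18.9% of all probe sets were lower and 7.5% higher without overlap. Late, 8 of the 10 genes of brain neurons were lower, 4 without overlap, and 2 higher. Of the 9 glial genes, 7 were lower late, 3 without overlap, and 2 higher, 1 without overlap. The late shares of all probe sets were 15.7% lower and 12.7% higher.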
